A study of Mus musculus with 9 samples.

Results

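Branched-chain amino acid breakdown was followed through 10 genes, Bcat2, Bckdha, Bckdhb, Dbt, Bckdk, Ivd, Mccc1, Mccc2, Hibch and Pcca, chosen by symbol. All 10 were among the 24421 genes of the table and among the 15583 that reached 0.3 CPM (a read count scaled to the size of its library) in at least 2 of the 9 mice. Poly(A) RNA was sequenced from flow-sorted proximal tubular epithelial cells of 3 non-diabetic *db/m*, 3 diabetic *db/db* and 3 dapagliflozin-treated *db/db* (*db/db*-dapa, also called treated) mice, to ask what diabetes and SGLT2 inhibition change in these cells. Without functional leptin receptors, *db/db* mice develop obesity and diabetes, and *db/m* mice are heterozygous. The strain was C57BL/6 in all groups. All mice carried a CreERT2 cassette in the Slc34a1 locus (SLC34a1GCE) and the R26tdTomato reporter, and received tamoxifen 5 times from 8 weeks of age at 3 mg per mouse. Dapagliflozin was given to *db/db*-dapa mice in drinking water at 1.5 mg/kg/day for 8 weeks, and *db/db* mice received vehicle. No treatment of *db/m* mice and no age at collection were given in the sources used here. The reporter marks cells in which Slc34a1 was active at the time of tamoxifen, and living tdTomato-positive cells were collected from the cortex, although the sample labels name only the kidney. Each library came from 1 mouse. Total counts were 6571572, 5754910 and 4817721 in *db/m*, 2733349, 4951113 and 7635669 in *db/db*, and 6981225, 7626107 and 9033123 in *db/db*-dapa mice, so the least precise values are those of *db/db* mouse 1.

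Markers of the proximal tubule were abundant in every library. The summed level of 10 of 10 listed markers, led by Slc34a1 itself, was 11441, 12655 and 11420.0 CPM in *db/m*, 14533, 12017 and 20426 CPM in *db/db* and 15056, 17772 and 20295 CPM in *db/db*-dapa mice. This sum was lowest in *db/m* mice 1 and 3, with *db/db* mouse 2 below *db/m* mouse 2, and highest in *db/db* mouse 3 and *db/db*-dapa mouse 3. Markers of other cells were also detected. The sum of 11 of 11 markers of the thick limb, distal tubule and collecting duct, led by Umod, was 1590.1, 1201 and 3074 CPM in *db/m*, 2050.1, 1019 and 1014 CPM in *db/db* and 1049, 847 and 947 CPM in *db/db*-dapa mice. It stood highest in *db/m* mouse 3, followed by *db/db* mouse 1. Other libraries stood apart for other cells: the 4 podocyte markers, led by Podxl, summed to 220.4 CPM in *db/db*-dapa mouse 1 and to at most 72.7 CPM elsewhere, and the 4 hemoglobin genes, led by Hba-a1, to 1449.6 CPM in *db/db* mouse 2 and to at most 417 CPM elsewhere. The 9 immediate early genes, led by Jun, summed to 7604 CPM in *db/db* mouse 2 and to between 2589 and 5852 CPM elsewhere. Of the remaining lists, the 5 macrophage markers, led by Cd74, reached 468 CPM, the 4 endothelial markers, led by Emcn, 125 CPM, the 4 fibroblast and mural markers, led by Acta2, 22.9 CPM and the 2 T cell markers, led by Cd3e, 1.60 CPM at most. None of these markers was at 0 in all mice. In bulk RNA, fewer cells of a type and less RNA per cell cannot be told apart.

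Leucine, isoleucine and valine lose their amino group to a branched-chain aminotransferase, and the resulting keto acids are oxidized in mitochondria by the branched-chain keto acid dehydrogenase (BCKDH) complex, the committed step, which a kinase switches off and a phosphatase switches on. Separate branches then carry leucine carbon to acetyl-CoA and acetoacetate, and isoleucine and valine carbon through propionyl-CoA toward succinyl-CoA. The kidney is among the organs that both take up and oxidize these amino acids, and proximal tubule cells reabsorb them from the filtrate.

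With edgeR, 0 of the 10 genes passed an adjusted p under 0.1 in any of the 3 comparisons. Between treated and untreated *db/db* mice the background was the same, with 0% of the 15583 genes past the adjusted p and 0% past it with a log2 fold change over 1 in size. None of the 10 had an unadjusted p under 0.05 in that comparison, against 5.19% of all genes tested. Between *db/db* and *db/m* mice, 1.67% of all genes passed the adjusted p and 1.24% passed both thresholds, and 1 of the 10, Ivd, had an unadjusted p under 0.05, against 13.7% of all genes tested. Between treated and *db/m* mice the background was 1.31% and 1.05%, and 0 of the 10 had an unadjusted p under 0.05, against 18.2% of all genes tested. DESeq2 passed Ivd between *db/db* and *db/m* mice and none of the 10 elsewhere, beside 15, 727 and 854 of the 15583 genes in the 3 comparisons, taken in the order above. limma on log2(CPM + 1) passed 0 of the 10 in each comparison, beside 0, 272 and 185 of all genes. With limma-voom and sample weights, 2 passed between treated and untreated *db/db* mice (Ivd and Pcca), 1 between *db/db* and *db/m* mice (Ivd) and 2 between treated and *db/m* mice (Bckdhb and Pcca). The same tool passed 899, 439 and 4884 of the 15583 genes. Read against these, 2 of 10 lies below the background in the last comparison. The counts of 2 and 1 of 10 in the other comparisons lie above it. None of the 10 passed both thresholds with any of these tools.

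The median log2 fold change of the 10 genes was 0.16 between treated and untreated *db/db* mice, -0.14 between *db/db* and *db/m* mice and -0.12 between treated and *db/m* mice. Over all genes tested the medians were -0.0094, 0.020 and -0.022. The 3 comparisons share groups and are therefore not independent of each other. Single mice moved the medians: the first was 0.024 without *db/db* mouse 1 and 0.29 without *db/db* mouse 3, the second -0.21 without *db/db* mouse 3 and -0.087 without *db/db* mouse 1, and the third -0.0066 without *db/db*-dapa mouse 1. Of the 10 genes, 6 were higher in treated than in untreated *db/db* mice. Between *db/db* and *db/m* mice 2 were higher, and with total counts as the scale Mccc2 and Pcca also turned to higher. Between treated and *db/m* mice 4 were higher, and with total counts as the scale Hibch also turned to higher. Groups did not overlap for 1 of the 10 between treated and untreated *db/db* mice (10.2% of all genes tested), 1 between *db/db* and *db/m* mice (16.4%) and 3 between treated and *db/m* mice (28.1%). Read against these shares, the counts of the 10 were close to the background. *db/db* mouse 3 mattered for the background: without it, 419 genes passed the adjusted p between treated and untreated *db/db* mice, where none did with all mice, and 0 of the 10 were among them.

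**Figure D1:**
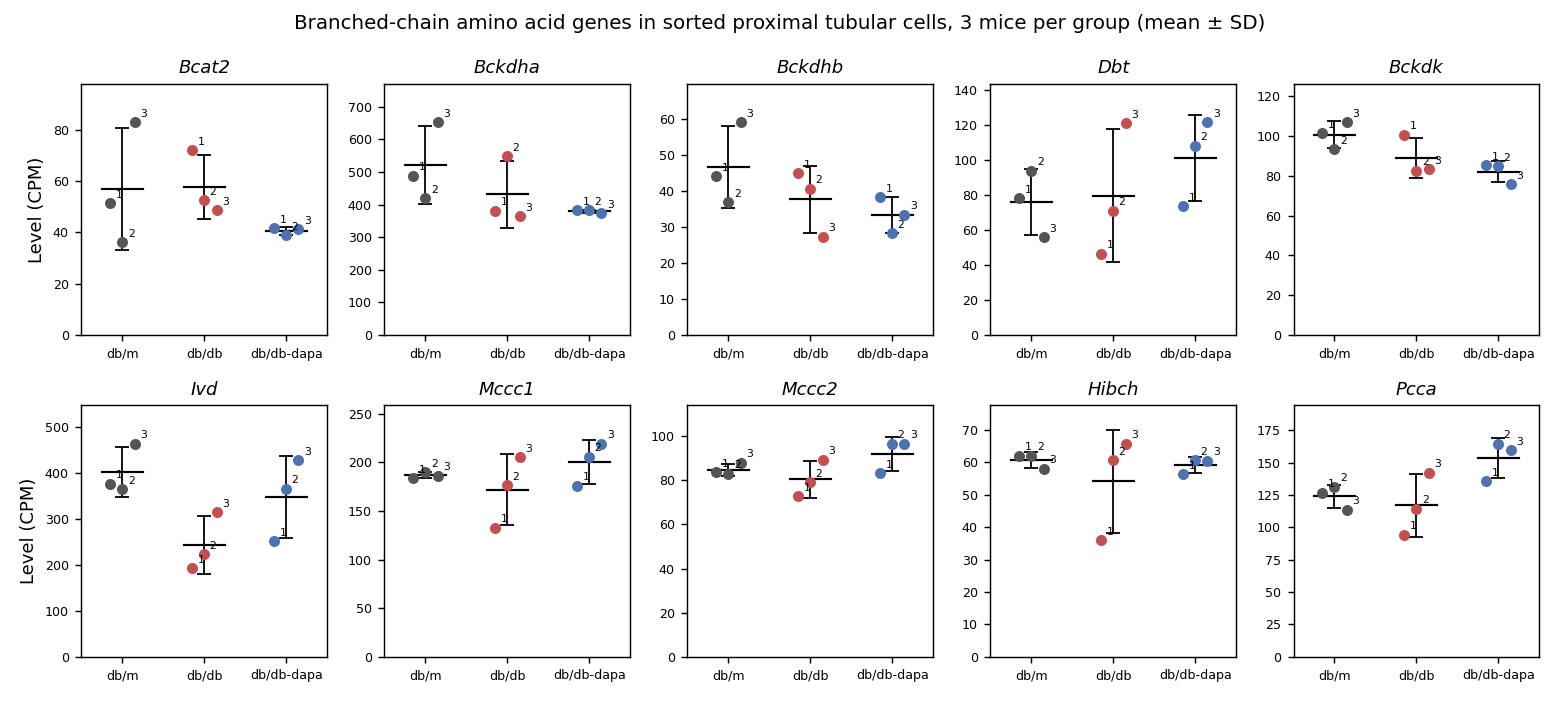
Levels of the 10 genes in CPM on axes that start at 0; each point is 1 mouse, numbered by replicate, with the mean and SD of 3 mice per group. The 3 *db/m* values of Ivd lie above the 3 *db/db* values, the 3 *db/db*-dapa values of Bcat2 lie between 39.0 and 41.7 CPM, and the values of Dbt spread over 46.6 to 121 CPM within *db/db* mice alone.

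Bcat2, the mitochondrial aminotransferase that starts the pathway (chr7:45570153-45589711, plus strand, coordinates of GRCm38 here and throughout), was at 51.3, 36.3 and 83.0 CPM in *db/m*, 72.1, 52.6 and 48.8 CPM in *db/db* and 41.7, 39.0 and 41.2 CPM in *db/db*-dapa mice. The treated mice lay close together and below all *db/db* mice, while the *db/m* mice spread around both other groups. Its log2 fold change was -0.50 (SE 0.27, 95% interval -1.09 to 0.090, adjusted p = 0.854) between treated and untreated *db/db* mice, and the exact two-sided permutation test gave p = 0.1, the smallest that 3 against 3 mice allow. The log2 fold change was 0.020 (SE 0.27) between *db/db* and *db/m* mice and -0.48 (SE 0.27, adjusted p = 0.347) between treated and *db/m* mice. These values rested on single *db/m* mice: without mouse 3 they were 0.38 and -0.11, and without mouse 2 -0.22 and -0.72. The difference between treated and untreated *db/db* mice was -0.32 without *db/db* mouse 1. Over the 9 mice, Bcat2 followed the mean log2(CPM + 1) of the 11 distal nephron markers (r = 0.94, rho = 0.90, r = 0.97 for deviations from the group means and r = 0.71 without the 2 mice farthest from the median). Only 0.693% of all genes had a correlation of that size or larger with these markers. The highest Bcat2 values, in *db/m* mouse 3 and *db/db* mouse 1, were in the libraries with the highest marker sums, and the part of these cells in the Bcat2 values was not tested. Bcat1, the cytosolic aminotransferase, had at most 3 counts in any mouse.

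The BCKDH complex is built from the E1 subunits Bckdha and Bckdhb, the E2 core Dbt and the E3 component Dld, which other dehydrogenases share. Bckdha (chr7:25629946-25658981, minus strand), the E1 alpha subunit that the kinase phosphorylates, was at 489, 420.1 and 653 CPM in *db/m*, 382, 548 and 364 CPM in *db/db* and 383, 383 and 374 CPM in *db/db*-dapa mice. The treated mice again lay close together, below all *db/m* mice and within the range of *db/db* mice. The log2 fold change of Bckdha was -0.45 (SE 0.21, 95% interval -0.92 to 0.014, adjusted p = 0.284) between treated and *db/m* mice with the exact permutation p = 0.1, -0.27 (SE 0.21) between *db/db* and *db/m* mice and -0.18 (SE 0.21) between treated and untreated *db/db* mice. Without *db/db* mouse 2, the highest of its group, the last of these was 0.027. Without *db/m* mouse 3 the first was -0.26 and the second -0.083, and without *db/db* mouse 2 the second was -0.48.

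Bckdhb (chr9:83925145-84124240, plus strand), the E1 beta subunit, was at 44.1, 36.8 and 59.1 CPM in *db/m*, 44.9, 40.6 and 27.3 CPM in *db/db* and 38.2, 28.2 and 33.4 CPM in *db/db*-dapa mice. The highest value was in *db/m* mouse 3 and the lowest in *db/db* mouse 3, and the groups overlapped in every comparison. Its log2 fold change was -0.49 (SE 0.23, 95% interval -1.0 to 0.028, adjusted p = 0.292) between treated and *db/m* mice, and -0.29 without *db/m* mouse 3. The adjusted p of Bckdhb in that comparison was 0.0479 with limma-voom and sample weights and up to 0.614 over the 19 alternatives.

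Dbt (chr3:116513070-116549981, plus strand), the E2 transacylase, was at 78.4, 93.9 and 56.0 CPM in *db/m*, 46.6, 71.2 and 121 CPM in *db/db* and 73.7, 108 and 122 CPM in *db/db*-dapa mice. Here *db/db* mouse 3 and *db/db*-dapa mouse 3 were highest and *db/db* mouse 1 and *db/m* mouse 3 lowest, so that the spread within *db/db* mice covered nearly all values. The log2 fold change of Dbt was 0.41 (SE 0.33) between treated and *db/m* mice, 0.34 (SE 0.32) between treated and untreated *db/db* mice and 0.076 (SE 0.33) between *db/db* and *db/m* mice. The first of these was 0.23 without *db/m* mouse 3. The Dbt difference between treated and untreated *db/db* mice reached 0.79 without *db/db* mouse 3 and 0.071 without *db/db* mouse 1. That between *db/db* and *db/m* mice turned to -0.37 without *db/db* mouse 3 and was 0.34 without *db/db* mouse 1. Dld was steadier, at 304 ± 39.7 CPM in *db/m*, 312 ± 29.5 CPM in *db/db* and 357 ± 36.8 CPM in *db/db*-dapa mice (mean and SD, n = 3), with log2 fold changes from 0.037 to 0.23.

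Dbt and Bckdhb thus varied in opposite directions among mice (r = -0.84). Bckdha and Dbt did so less clearly (r = -0.50, and -0.21 without the 2 mice farthest from the median of Bckdha). The ratio of Dbt to Bckdhb CPM, whose size depends on gene length and which does not depend on the scaling of the library, was 1.78, 2.55 and 0.947 in *db/m*, 1.04, 1.75 and 4.44 in *db/db* and 1.93, 3.84 and 3.65 in *db/db*-dapa mice. It differed 4.69-fold between its lowest value, in *db/m* mouse 3, and its highest, in *db/db* mouse 3. The ratio of Bckdhb to Bckdha, both E1 subunits, differed only 1.59-fold over the 9 mice, and that of Mccc1 to Mccc2, subunits of a carboxylase described below, 1.26-fold.

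Bckdk (chr7:127904082-127910221, plus strand), the kinase that inactivates the complex, was at 101, 93.3 and 107 CPM in *db/m*, 101, 82.6 and 83.4 CPM in *db/db* and 85.5, 84.7 and 75.9 CPM in *db/db*-dapa mice. All treated mice lay below all *db/m* mice, and *db/db* mice lay across both. Its log2 fold change was -0.29 (SE 0.16, 95% interval -0.64 to 0.046, adjusted p = 0.324) between treated and *db/m* mice, with the exact permutation p = 0.1, and -0.11 (SE 0.16) between treated and untreated *db/db* mice (-0.019 without *db/db* mouse 1). Ppm1k, the phosphatase that reactivates the complex, was at 38.3, 30.4 and 48.4 CPM in *db/m*, 31.3, 27.6 and 29.6 CPM in *db/db* and 36.3, 23.2 and 31.6 CPM in *db/db*-dapa mice. Its values overlapped between all groups, and its log2 fold change was -0.40 (SE 0.22, adjusted p = 0.446) between *db/db* and *db/m* mice. Between treated and *db/m* mice it was -0.36 (SE 0.22, adjusted p = 0.377), and the adjusted p of Ppm1k in that comparison ranged from 0.0766, with limma-voom and sample weights, to 0.749 over the 19 alternatives. Without *db/m* mouse 3 the Ppm1k difference was -0.23 between *db/db* and *db/m* mice and -0.18 between treated and *db/m* mice. With edgeR, neither the kinase nor the phosphatase passed the threshold.

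In the leucine branch, Ivd (chr2:118861954-118882909, plus strand), the isovaleryl-CoA dehydrogenase that acts first after BCKDH, showed the largest difference of the 10 genes. Its level was 377, 365 and 464 CPM in *db/m*, 193, 223 and 315 CPM in *db/db* and 251, 365 and 428 CPM in *db/db*-dapa mice. All *db/db* mice lay below all *db/m* mice, and *db/db*-dapa mice covered the range from *db/db* to *db/m* values. Between *db/db* and *db/m* mice the log2 fold change of Ivd was -0.72 (SE 0.24, 95% interval -1.25 to -0.19, unadjusted p = 0.0121, adjusted p = 0.225) with edgeR, and the exact permutation test gave p = 0.1. Between treated and untreated *db/db* mice it was 0.51 (SE 0.24, 95% interval -0.015 to 1.04, unadjusted p = 0.0559, adjusted p = 0.854), with *db/db*-dapa mouse 1 inside the *db/db* range, and between treated and *db/m* mice it was -0.21 (SE 0.24). Without *db/db*-dapa mouse 3 the Ivd difference between treated and untreated *db/db* mice was 0.35, and without *db/db*-dapa mouse 1 that between treated and *db/m* mice was -0.014. The call of Ivd between *db/db* and *db/m* mice depended on the setting: the adjusted p was 0.0960 with DESeq2, 0.0668 with limma-voom and sample weights and 0.0827 with edgeR without *db/db* mouse 3, within a range of 0.0668 to 0.423 over the 19 alternatives. The log2 fold change was below 0 in all of them, from -0.96 to -0.58.

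Ivd moved with markers of the S3 segment, the last part of the proximal tubule. The summed level of 6 of 6 S3 markers, led by Atp11a, was 1547, 1567 and 1344 CPM in *db/m*, 226, 298 and 1074 CPM in *db/db* and 819, 827 and 1136 CPM in *db/db*-dapa mice. It was lowest in *db/db* mice 1 and 2, where Ivd was also lowest. Slc22a7, an anion transporter of this list, was at 73.5, 48.3 and 42.9 CPM in *db/m* mice and at most 0.525 CPM in the other 6 mice. Slc5a1, the glucose carrier of the list, was at 77.6, 67.5 and 69.3 CPM in *db/m*, 28.9, 77.4 and 171 CPM in *db/db* and 133, 131 and 147 CPM in *db/db*-dapa mice. It was lowest in *db/db* mouse 1, like Ivd, but all its treated values and that of *db/db* mouse 3 lay above all *db/m* values. Over the 9 mice, Ivd correlated with the mean log2(CPM + 1) of the S3 markers (r = 0.78, rho = 0.80, r = 0.56 for deviations from the group means and r = 0.73 without the 2 mice farthest from the median). Of all genes, 4.09% had a correlation with these markers at least that large. The part of S3 cells in the Ivd values was not tested.

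Mccc1 and Mccc2 encode the biotin-carrying alpha subunit and the beta subunit of methylcrotonyl-CoA carboxylase, the step of leucine breakdown after Ivd. Mccc1 (chr3:35959312-36000678, minus strand) was at 184, 190.0 and 186 CPM in *db/m*, 133, 176 and 205 CPM in *db/db* and 176, 206 and 219 CPM in *db/db*-dapa mice. Mccc2 (chr13:99948530-100015639, minus strand) was at 83.6, 82.9 and 87.9 CPM in *db/m*, 72.7, 79.0 and 89.3 CPM in *db/db* and 83.2, 96.5 and 96.5 CPM in *db/db*-dapa mice. In both, *db/m* mice lay within a narrow range, *db/db* mouse 1 was lowest of all mice and *db/db*-dapa mice 2 and 3 were highest, and the groups overlapped. The log2 fold change between treated and untreated *db/db* mice was 0.22 (SE 0.18) for Mccc1 and 0.19 (SE 0.15) for Mccc2, and those between *db/db* and *db/m* mice were -0.12 (SE 0.18) and -0.075 (SE 0.15). Without *db/db* mouse 1 these were 0.067, 0.13, 0.034 and -0.010 in the same order. Without *db/db* mouse 3 they were 0.38, 0.29, -0.27 and -0.17. Mccc1 and Mccc2 correlated over the 9 mice (r = 0.91, rho = 0.85, r = 0.91 for deviations from the group means and r = 0.84 without the 2 mice farthest from the median).

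Hibch (chr1:52844929-52920986, plus strand), the 3-hydroxyisobutyryl-CoA hydrolase of the valine branch, was at 62.0, 61.9 and 58.0 CPM in *db/m*, 36.0, 60.6 and 65.7 CPM in *db/db* and 56.4, 60.5 and 60.4 CPM in *db/db*-dapa mice. Except for *db/db* mouse 1, the library with the fewest counts, all mice lay between 56.4 and 65.7 CPM. Its log2 fold change was -0.15 (SE 0.21) between *db/db* and *db/m* mice and 0.059 without *db/db* mouse 1, and -0.038 (SE 0.21, 95% interval -0.49 to 0.41) between treated and *db/m* mice.

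Pcca (chr14:122534324-122891100, plus strand), the biotin-carrying alpha subunit of propionyl-CoA carboxylase, was at 127, 131 and 114 CPM in *db/m*, 94.1, 114 and 142 CPM in *db/db* and 136, 164 and 159 CPM in *db/db*-dapa mice. All treated mice lay above all *db/m* mice, and *db/db* mouse 3 was the only untreated *db/db* mouse within the treated range. Pcca gave r = 0.84 with the mean of the proximal tubule markers and -0.80 with that of the distal nephron markers. For deviations from the group means these were 0.90 and -0.78. The part of these cells in the Pcca values was not tested. The log2 fold change of Pcca was 0.31 (SE 0.18, 95% interval -0.092 to 0.71, adjusted p = 0.372) between treated and *db/m* mice, with the exact permutation p = 0.1, and 0.39 (SE 0.18, 95% interval -0.013 to 0.79, unadjusted p = 0.0566, adjusted p = 0.854) between treated and untreated *db/db* mice (0.25 without *db/db* mouse 1). With limma-voom and sample weights, both differences of Pcca passed, at an adjusted p of 0.0789 and 0.0912, and so did that of Ivd between treated and untreated *db/db* mice, at 0.0900. Over the 19 alternatives the adjusted p of Pcca ranged from 0.0789 to 0.661 against *db/m* mice and from 0.0912 to 1 against *db/db* mice, and that of Ivd against *db/db* mice from 0.0900 to 1. The partner subunit of Pcca, Pccb, was at 310.0 ± 37.5 CPM in *db/m*, 322 ± 53.0 CPM in *db/db* and 348 ± 26.4 CPM in *db/db*-dapa mice (mean and SD, n = 3), with a log2 fold change of 0.17 (SE 0.18) between treated and *db/m* mice. Without *db/m* mouse 1 this difference of Pccb was 0.067.

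**Figure D2:**
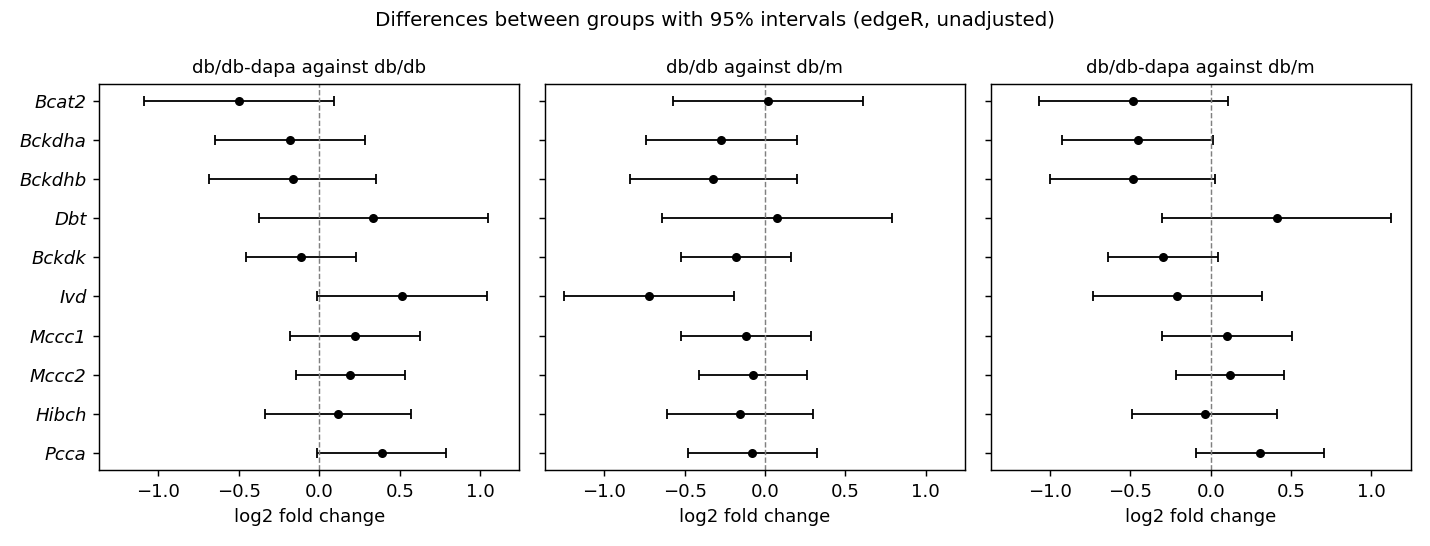
Log2 fold changes of the 10 genes in the 3 comparisons, with 95% intervals of the edgeR fit that are not adjusted for the number of genes. The interval of Ivd between *db/db* and *db/m* mice, -1.25 to -0.19, is the only one of the 30 that does not include 0.

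Over the 9 mice the genes fell into sets that moved together, grouped here after their values were seen and given as a description. Bcat2, Bckdha, Bckdhb and Bckdk correlated positively in all 6 of their pairs, with r from 0.54 to 0.78. Dbt, Mccc1, Mccc2, Hibch and Pcca did so in all 10 of their pairs, with r from 0.66 to 0.91. Between these sets, 19 of 20 pairs were negative, with a median r of -0.51, and the lowest was that of Bckdhb with Dbt (r = -0.84, rho = -0.88, r = -0.90 for deviations from the group means and r = -0.80 without the 2 mice farthest from the median). Some pairs depended on a few mice or on the kind of correlation: without the 2 mice farthest from the median of Bcat2, its r with Bckdk was 0.12 and with Bckdhb 0.33, and the rank correlation of Hibch with Mccc2 was 0.25 (r = 0.66, and 0.82 without the 2 mice farthest from the median of Mccc2). Within the sets, r was 0.10 for Bckdha with Bckdk in deviations from the group means, and 0.12 for Hibch with Pcca without the 2 mice farthest from the median of Hibch. Between the sets, Bckdha with Hibch was the positive pair (r = 0.16). Signs also turned there: Bckdha had r = 0.0069 with Mccc1 and 0.035 with Mccc2 in deviations from the group means, and Bcat2 had r = 0.30 with Hibch without its 2 farthest mice. Ivd was placed in neither set. Its r with Dbt, Mccc1, Mccc2, Hibch and Pcca was 0.46, 0.76, 0.77, 0.62 and 0.56 over the 9 mice, 0.66, 0.83, 0.96, 0.55 and 0.70 for deviations from the group means and -0.067, 0.39, 0.40, 0.081 and -0.15 without the 2 farthest mice. With Bcat2, Bckdha, Bckdhb and Bckdk it was -0.14, 0.25, 0.0065 and 0.069 over the 9 mice, 0.020, 0.060, -0.41 and -0.45 for deviations and -0.43, 0.30, -0.56 and -0.55 without the 2 farthest. The mice left out were the farthest for Ivd in its pairs with Mccc1, Mccc2, Hibch and Pcca. In the other pairs of Ivd they were the farthest for the other gene, so the mice left out can differ between pairs. The 9 points share their groups, and mice of all groups differ in depth and in the markers of other cells.

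Some of these genes moved with properties of the libraries as a whole. The median log2 deviation of genes with over 4000 bases of exon minus that of genes with under 1500 bases, a measure chosen after the values were seen, was -0.24, -0.018 and -0.41 in *db/m*, -0.13, -0.20 and 0.38 in *db/db* and 0.027, 0.24 and 0.29 in *db/db*-dapa mice. Long genes were relatively low in *db/m* mouse 3 and relatively high in *db/db* mouse 3 and *db/db*-dapa mice 2 and 3. This measure correlated with Bckdhb (r = -0.95, rho = -0.92, r = -0.92 for deviations from the group means and r = -0.89 without the 2 mice farthest from the median) and, in the other direction, with Dbt (r = 0.83, rho = 0.78, r = 0.89 for deviations from the group means and r = 0.73 without the 2 mice farthest from the median). Bckdhb has 1805 and Dbt 3348 bases of exon, so neither counted as long or short. Bckdk with 3695 and Bcat2 with 3900 bases had r = -0.78 and -0.66. The members counted as long, Pcca (5210 bases), Ivd (5505), Hibch (6059) and Mccc1 (10952), had r = 0.75, 0.070, 0.27 and 0.53. The r of the 10 genes thus did not run in the order of their lengths, and the part of gene length was not tested. The mean of the 10 proximal tubule markers gave r = -0.88 with Bckdhb and 0.86 with Dbt, and that of the 11 distal nephron markers gave r = 0.88 and -0.85. These measures are not independent of each other. The proximal tubule mean and the measure of gene length were both lowest in *db/m* mouse 3 and highest in *db/db* mouse 3 and *db/db*-dapa mouse 3, so their r with a gene are not separate results. Of all genes, 3.70%, 10.6% and 3.66% had a correlation at least as large in size as that of Bckdhb with the measure of gene length, the proximal tubule markers and the distal nephron markers, and 18.6%, 13.2% and 5.98% one at least as large as that of Dbt. Of the first set, Bckdha had r = -0.84, -0.72 and 0.66 with these 3 measures, reached by 17.0%, 30.4% and 31.1% of all genes. Bckdk had r = -0.78, -0.82 and 0.86, reached by 24.8%, 18.7% and 5.28%, and Bcat2 r = -0.66, -0.63 and 0.94. Of the second set, Pcca had r = 0.75, 0.84 and -0.80 with these measures, sizes that 28.5%, 16.3% and 11.7% of all genes reached. Hibch had r = 0.27, 0.40 and -0.48, reached by 76.4%, 64.9% and 52.1%. With the measure of gene length, Mccc1 had r = 0.53 and Mccc2 r = 0.57, reached by 51.9% and 48.0%. With the proximal tubule markers they had r = 0.67 and 0.72, reached by 36.1% and 30.6%. With the distal nephron markers they had r = -0.60 and -0.51, reached by 38.5% and 49.2%. For Ivd the r over the 9 mice was 0.070, 0.22 and -0.070 with these 3, but for deviations from the group means it was 0.56, 0.74 and -0.21 in the same order. Without the 2 farthest mice the r over the others was 0.54, 0.023 and -0.37. The part of cell composition and of RNA quality in the values of the 10 genes was not tested.

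**Figure D3:**
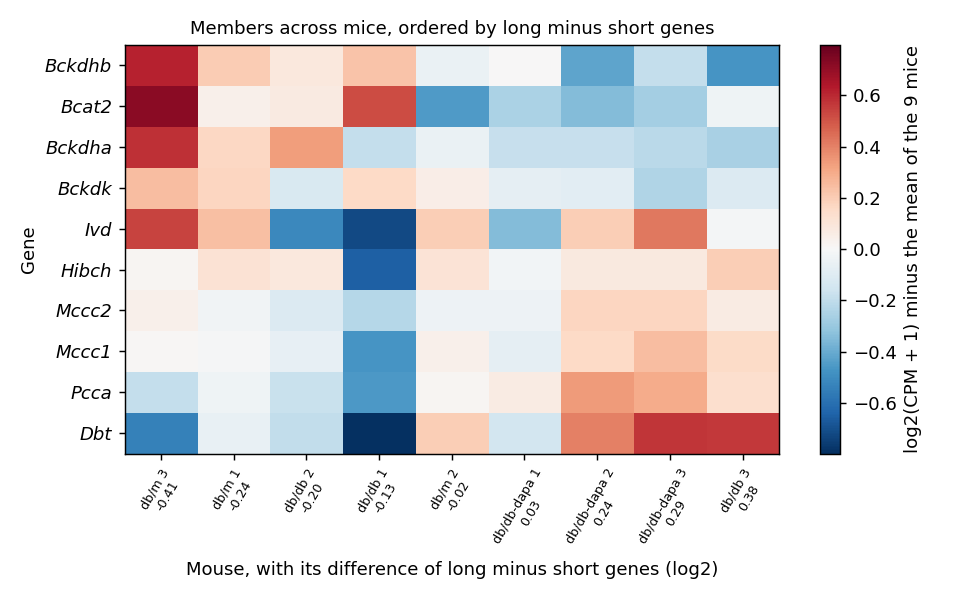
Levels of the 10 genes in each mouse as log2(CPM + 1) minus the mean over the 9 mice, with mice ordered by the difference between long and short genes, printed under each name. Bckdhb runs from high at the left to low at the right and Dbt from low to high, and *db/db* mouse 1 has the lowest value of Dbt, Ivd, Mccc1, Mccc2, Hibch and Pcca.

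Levels of different genes were compared as CPM per kilobase of exon, the mean over the 9 mice, with all annotated exons of a gene merged. Bckdha was highest at 234 and Ivd followed at 60.1. Mccc2 at 30.6, Dbt at 25.6, Pcca at 25.2, Bckdk at 24.5 and Bckdhb at 21.7 came next. Bckdha, Ivd and Mccc2 did not overlap over the 9 mice, whereas from Mccc2 down each gene overlapped with its neighbours in this order. Mccc1 at 17.0, Bcat2 at 13.3 and Hibch at 9.56 were lowest, a 24.4-fold range from the top. On this scale the E1 alpha subunit was above the E1 beta subunit and the E2 core in every mouse. Merged exons of rare isoforms lower these values, as for Mccc1, whose merged exons span 10952 bases, so the order is approximate.

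Of the other 21 genes of the pathway, with edgeR 0 rose and 0 fell in each comparison, and 1 of the 21 had an unadjusted p under 0.05 in each, beside 5.19%, 13.7% and 18.2% of all genes. Their median log2 fold changes were 0.11 between treated and untreated *db/db*, 0.037 between *db/db* and *db/m* and 0.12 between treated and *db/m* mice. limma on log2(CPM + 1) passed 0 in each comparison, and DESeq2 passed 1, Acat1 between *db/db* and *db/m* mice. DESeq2 passed 15, 727 and 854 of all 15583 genes in the 3 comparisons, so that 1 of 21 is close to its background. limma-voom with sample weights passed 1 (Echs1), 1 (Acat1) and 7 in the same order, beside 899, 439 and 4884 of all 15583 genes, so that 7 of 21 is close to its background. Acat1, the mitochondrial thiolase that ends isoleucine breakdown and also serves ketone bodies, was at 815, 784 and 759.8 CPM in *db/m*, 458, 524 and 588 CPM in *db/db* and 557, 641 and 717 CPM in *db/db*-dapa mice. All *db/db* and all treated mice lay below all *db/m* mice, with a log2 fold change of -0.59 (SE 0.17, adjusted p = 0.167) between *db/db* and *db/m* mice and -0.30 (SE 0.17, adjusted p = 0.351) between treated and *db/m* mice. Over the 9 mice Acat1 gave r = 0.92 with the S3 marker mean and r = -0.81 with the mean of the S1 and S2 markers, whose part in the Acat1 values was not tested. Echs1, the enoyl-CoA hydratase, was at 246, 239.7 and 274 CPM in *db/m*, 187, 208 and 251 CPM in *db/db* and 253, 282 and 307 CPM in *db/db*-dapa mice. Its treated mice lay above all *db/db* mice, at a log2 fold change of 0.38 (SE 0.17, unadjusted p = 0.0454, adjusted p = 0.854). Aldh6a1, the methylmalonate semialdehyde dehydrogenase of valine breakdown, had a log2 fold change of 0.81 (SE 0.29, adjusted p = 0.212) between treated and *db/m* mice. Mcee, the methylmalonyl-CoA epimerase, was lower in all treated than in all *db/m* mice, at -0.57 (SE 0.28, adjusted p = 0.294), and Hlcs, which attaches biotin to the carboxylases, was higher in all treated than in all *db/m* mice, at 0.73 (SE 0.38, adjusted p = 0.319). Aldh6a1, Mcee and Hlcs had r = 0.95, -0.95 and 0.82 with the measure of gene length and 0.94, -0.94 and 0.86 with the proximal tubule markers. Of all genes, 22.2% and 21.1% had an r over 0.8 in size with these measures. The part of these library properties in the values of the 3 genes was not tested.

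Among 7 genes of the transport of branched-chain and other neutral amino acids, the median log2 fold change was 0.077 between treated and untreated *db/db*, 0.46 between *db/db* and *db/m* and 0.36 between treated and *db/m* mice. Unadjusted p under 0.05 was reached by 0, 3 and 4 of the 7, beside 5.19%, 13.7% and 18.2% of all genes. Adjusted p under 0.1 was reached by 0, 0 and 1 with edgeR and with limma on log2(CPM + 1), by 0, 2 and 3 with DESeq2 and by 0, 1 and 5 (4 higher and 1 lower) with limma-voom and sample weights. Of all 15583 genes, edgeR passed 0, 261 and 204 and limma on log2(CPM + 1) 0, 272 and 185. DESeq2 passed 15, 727 and 854 and limma-voom 899, 439 and 4884 of them. Slc43a2, an L-type carrier, was at 163, 183 and 192 CPM in *db/m*, 272, 263 and 317 CPM in *db/db* and 261, 365 and 300.0 CPM in *db/db*-dapa mice. All *db/db* and all treated mice lay above all *db/m* mice. With edgeR, Slc43a2 alone of the 7 rose, between treated and *db/m* mice, at a log2 fold change of 0.78 (SE 0.18, adjusted p = 0.0905), under the size threshold of 1. This call was lost without *db/m* mouse 1 (adjusted p = 0.309), 2 (0.159) or 3 (0.234) and without *db/db*-dapa mouse 2 (0.431) or 3 (0.270), and with a replicate block (0.116). It passed in 13 of 19 alternatives, over which the adjusted p of Slc43a2 ranged from 0.00138 to 0.431. Slc43a2 gave r = 0.83 with the mean of the S1 and S2 markers, -0.73 with that of the S3 markers and 0.74 with the measure of gene length, whose part was not tested. Between *db/db* and *db/m* mice the log2 fold change of Slc43a2 was 0.67 (SE 0.18, adjusted p = 0.125). Slc7a8, a basolateral carrier of neutral amino acids, was at 234, 307 and 140.3 CPM in *db/m*, 453, 374 and 421 CPM in *db/db* and 367, 549.7 and 451 CPM in *db/db*-dapa mice, and its log2 fold change was 1.0 (SE 0.26, adjusted p = 0.123) between treated and *db/m* mice. Slc6a19, the apical carrier of neutral amino acids, was at 175, 336 and 278 CPM in *db/m*, 577, 292 and 579 CPM in *db/db* and 461, 493 and 575 CPM in *db/db*-dapa mice, with 0.95 (SE 0.29, adjusted p = 0.172). All treated mice lay above all *db/m* mice for both, and the adjusted p passed in 4 of 19 alternatives for Slc7a8 and in 3 of 19 for Slc6a19. Slc6a19 also belongs to the list of S1 and S2 segment markers, whose 5 of 5 genes, led by Slc5a2, summed to 2143, 2699 and 2579 CPM in *db/m*, 5116, 3589 and 3332 CPM in *db/db* and 3635, 3720.2 and 3443 CPM in *db/db*-dapa mice. That sum was lowest in the 3 *db/m* mice, as Slc7a8 was, whereas Slc6a19 of *db/db* mouse 2 lay among the *db/m* values. The part of S1 and S2 cells in these values was not tested. Slc25a44, the mitochondrial carrier of branched-chain amino acids, had a log2 fold change of 0.36 (SE 0.22, adjusted p = 0.377) between treated and *db/m* mice, with overlapping groups. Slc7a5, the light chain of another L-type carrier, was at most 5.51 CPM and 35 counts in any mouse. Its groups overlapped, and its log2 fold change of -1.38 (SE 0.55, unadjusted p = 0.0288, adjusted p = 0.239) between treated and *db/m* mice was the largest in size of the 7 genes. The adjusted p of Slc7a5 ranged from 0.0427, with limma-voom and sample weights, to 0.566 over the 19 alternatives.

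Of 4 regulators, 0 passed the adjusted p with edgeR in any comparison, and unadjusted p under 0.05 was reached by 0, 1 and 1 in the same order, beside 5.19%, 13.7% and 18.2% of all genes. DESeq2 passed 1, Ppargc1a between *db/db* and *db/m* mice, beside 727 of all 15583 genes. With limma-voom and sample weights 1 passed, Ppargc1a between treated and *db/m* mice, beside 4884 of all genes, so that 1 of 4 lies below this background. With limma on log2(CPM + 1), 0 passed. Ppargc1a, a coactivator of mitochondrial genes, was at 53.4, 57.2 and 49.96 CPM in *db/m*, 91.8, 73.8 and 95.4 CPM in *db/db* and 61.7, 76.5 and 98.1 CPM in *db/db*-dapa mice. All *db/db* and treated mice lay above all *db/m* mice, at a log2 fold change of 0.70 (SE 0.20, adjusted p = 0.152) between *db/db* and *db/m* mice. That difference also passed with total counts as the scale, and its adjusted p ranged from 0.0451 to 0.372 over the 19 alternatives. Ppargc1a gave r = 0.83 with the mean of the S1 and S2 markers and r = -0.69 with that of the S3 markers, whose part was not tested. Klf15, a transcription factor known to induce branched-chain amino acid enzymes, had log2 fold changes between -0.11 and 0.017 and overlapping groups throughout. Mlxipl, the carbohydrate-responsive factor ChREBP, was lower in all treated than in all *db/db* mice, at -0.36 (SE 0.20, adjusted p = 0.854).

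Some loci share exon bases with other genes, and the counting was not stated to use strand, so that reads of both could not be told apart there. Bcat2 shares 622 exon bases with 0610005C13Rik, an antisense gene at 224, 168 and 266 CPM in *db/m*, 160.4, 209 and 159 CPM in *db/db* and 176, 156 and 167 CPM in *db/db*-dapa mice, more CPM than Bcat2 itself in every mouse. That antisense gene was highest in *db/m* mouse 3, as Bcat2 was. Bckdha shares 1171 bases with B3gnt8 on the other strand, which stayed at or below 4.88 CPM, and Pcca shares 241 bases with Ggact, which was between 84.2 and 109.7 CPM. Mccc1 shares 198 bases with the antisense gene Mccc1os, at or below 4.04 CPM, 94 bases with another antisense gene, Gm15952, and 321 bases with a processed pseudogene. The last 2 are not in the table. Bcat2, Bckdha, Bckdhb, Bckdk and Mccc1 had values that were not whole in some mice, which leaves their counts less certain than those of the other 5.

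Because sets of these genes moved together, their promoters were read from RefSeq (GRCm38.p6; 250 bases before to 50 after the start) for 9 of the 10 genes, all but Dbt, 12 promoters in all. Of 4 motifs searched on both strands, CACGTG was found in 1 of the 12, that of Mccc2, and in 7.17% of all 32544 promoters. TGACGTCA and TCAAGGTCA were found in 0 of the 12 and in 1.80% and 0.412% of all. CCACCC was found in 6 of the 12, of Ivd, Mccc1, Bcat2, Bckdhb and Pcca, and in 31.6% of all. The last motif lay near the start of genes of either set and of Ivd. A match is a description of the letters and no evidence of binding. Shown 5′ to 3′ on the strand of the gene are Ivd (chr2:118861744-118862043, plus strand), as the gene with the largest difference, Mccc2 (chr13:100015590-100015889, minus strand), as the holder of CACGTG, and, from the set opposed to it, Bcat2 (chr7:45569903-45570202, plus strand) and Bckdhb (chr9:83924887-83925186, plus strand), with the matched letters in capitals, which read as the reverse complement where the match is on the other strand.
Ivd: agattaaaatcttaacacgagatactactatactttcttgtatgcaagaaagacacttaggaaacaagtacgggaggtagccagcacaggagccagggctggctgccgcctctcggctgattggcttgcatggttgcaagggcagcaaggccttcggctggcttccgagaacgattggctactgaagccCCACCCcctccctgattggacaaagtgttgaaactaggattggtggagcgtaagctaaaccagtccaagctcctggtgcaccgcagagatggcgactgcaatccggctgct
Mccc2: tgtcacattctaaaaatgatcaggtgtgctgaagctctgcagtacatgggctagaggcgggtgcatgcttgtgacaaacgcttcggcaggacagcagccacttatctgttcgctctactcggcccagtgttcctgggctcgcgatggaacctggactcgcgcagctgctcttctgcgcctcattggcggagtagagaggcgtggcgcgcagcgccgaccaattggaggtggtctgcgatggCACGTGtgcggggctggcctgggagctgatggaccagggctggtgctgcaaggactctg
Bcat2: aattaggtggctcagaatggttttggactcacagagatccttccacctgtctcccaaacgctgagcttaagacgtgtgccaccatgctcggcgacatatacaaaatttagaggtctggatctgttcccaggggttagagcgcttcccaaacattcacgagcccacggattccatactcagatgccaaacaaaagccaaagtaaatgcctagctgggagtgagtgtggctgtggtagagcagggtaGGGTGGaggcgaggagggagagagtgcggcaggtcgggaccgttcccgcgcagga
Bckdhb: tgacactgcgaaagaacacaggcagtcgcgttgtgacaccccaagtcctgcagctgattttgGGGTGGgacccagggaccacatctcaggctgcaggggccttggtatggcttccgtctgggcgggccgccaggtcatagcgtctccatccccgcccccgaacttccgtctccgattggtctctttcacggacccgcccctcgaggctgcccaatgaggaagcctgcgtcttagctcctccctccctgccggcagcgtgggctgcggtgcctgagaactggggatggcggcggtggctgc

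Among genes outside the lists, those close to the mean standardised level of the 10 genes over the 9 mice included Blmh (r = 0.96), Pdss1 (r = 0.96), Mpp6 (r = 0.95) and 1700086O06Rik (r = 0.94). Blmh, a cysteine protease, was at 95.4, 101 and 113 CPM in *db/m*, 57.1, 79.2 and 88.9 CPM in *db/db* and 76.7, 91.6 and 92.1 CPM in *db/db*-dapa mice. Like the mean of the 10 genes, it was lowest in *db/db* mouse 1. The mean of the 10 genes joins the sets described above, between which nearly all pairs were negative. These genes were picked for the highest r among all genes tested outside the lists, so the size of r follows from that choice. The mice share groups and library properties as above.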

How the data were processed

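The authors prepared stranded poly(A) libraries (TruSeq), sequenced single reads of 101 bases on a HiSeq instrument and, per the submitters' processing notes and the study's methods, used TopHat2 2.0.13, Bowtie2 2.2.3, SAMtools 0.1.19 and Cufflinks 2.2.1 with mm10. The deposited table is named for FPKM, but 90.9% of its values were whole numbers and 69.1% of the others ended in 0.5, with sums that differed between mice, so the deposited values were taken as estimated counts; how they were counted, and whether by strand, is not given in the sources used here. Of its columns, 0 were left unused. Values were rounded and scaled by TMM, and genes with at least 0.3 CPM in at least 2 of 9 mice were kept (3 counts were 0.339 to 1.02 CPM). All 9 mice were fitted together with edgeR 4.0.16 (quasi-likelihood, R 4.3.3), with Benjamini-Hochberg adjustment over all genes tested. A call needed an adjusted p under 0.1, given alone and with an absolute log2 fold change over 1. Standard errors and 95% intervals came from the same fit. Exact two-sided permutation tests used the difference of mean log2(CPM + 1). Alternatives were DESeq2 1.42.0, limma 3.58.1 with a pseudocount of 1 or 0.1 or with voom and sample weights, other scalings and filters, the newer quasi-likelihood form, only the groups compared, a replicate block, and leaving out each mouse. Correlations are descriptions over 9 mice, with no p; the 2 mice farthest from the median are those of the marker or length measure or, among the 10, of the gene listed first. Positions and exon lengths came from GENCODE M21 (GRCm38).

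The 10 genes, and the lists of other pathway, transport, regulator and marker genes, were chosen with earlier results of these data known. Named genes are the 10, their partner components Dld, Ppm1k, Pccb and Bcat1, from each other list those past the adjusted p and those with the highest and lowest log2 fold change per comparison, the leading marker genes, and the 5 genes of most similar pattern, of which 1 is not reported here. Slc22a7, Slc5a1 and the genes sharing exon bases were chosen after their values were seen. Each p rests on the spread between 3 mice per group.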

Additional observations from a re-analysis of the deposited data

How the results depend on the processing

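The median log2 fold change of the 10 genes kept its sign under all 19 alternatives of each comparison. Leaving out each mouse in turn it ranged from 0.024 to 0.29 between treated and untreated *db/db* mice, from -0.21 to -0.087 between *db/db* and *db/m* mice and from -0.15 to -0.0066 between treated and *db/m* mice. The number past both thresholds was 0 under every alternative. The number past the adjusted p was 0 except for 1 between *db/db* and *db/m* mice with DESeq2, with limma-voom and sample weights and without *db/db* mouse 3 (range without 1 mouse 0 to 1; the gene was Ivd in each), and 2 with limma-voom and sample weights in either comparison of *db/db*-dapa mice.

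Log2 differences between treated and untreated *db/db* mice of the opposite sign were Bcat1 at 0.11 with limma on log2(CPM + 0.1), Ppm1k at -0.14, Slc7a5 at 0.17 and Klf15 at 0.018 with limma-voom and sample weights, Ppm1k at -0.019 with total counts as the scale, and Ppm1k at -0.017 with the upper quartile as the scale. Leaving out each mouse in turn, the same differences took both signs for Bckdha from -0.28 to 0.027, Hibch from -0.10 to 0.29, Ppm1k from -0.094 to 0.21, Bcat1 from -1.36 to 0.050, Hlcs from -0.10 to 0.68, Slc7a5 from -0.65 to 0.059, Slc6a19 from -0.18 to 0.25, Slc43a2 from -0.012 to 0.23, Slc7a8 from -0.017 to 0.28, Klf15 from -0.25 to 0.12 and Ppargc1a from -0.32 to 0.014. Log2 differences between *db/db* and *db/m* mice of the opposite sign were Bcat1 at -0.066 with DESeq2, Dbt at -0.011, Bcat1 at -0.019 and Klf15 at -0.0094 with limma on log2(CPM + 1), Dbt at -0.012, Bcat1 at -0.043 and Klf15 at -0.0097 with limma on log2(CPM + 0.1), Dbt at -0.29, Dld at -0.024, Mcee at 0.028, Slc25a44 at -0.013 and Klf15 at -0.16 with limma-voom and sample weights, Mccc2 at 0.032 and Pcca at 0.022 with total counts as the scale, and Dbt at -0.029, Bcat1 at -0.27 and Klf15 at -0.012 with a replicate block. Leaving out each mouse in turn, the same differences took both signs for Bcat2 from -0.22 to 0.38, Dbt from -0.37 to 0.34, Mccc1 from -0.27 to 0.034, Hibch from -0.32 to 0.059, Pcca from -0.25 to 0.051, Dld from -0.051 to 0.14, Pccb from -0.10 to 0.13, Bcat1 from -0.59 to 0.84, Mcee from -0.44 to 0.14, Slc25a44 from -0.10 to 0.34 and Klf15 from -0.21 to 0.15. Log2 differences between treated and *db/m* mice of the opposite sign were Bcat1 at 0.065 with limma on log2(CPM + 0.1), Bcat1 at 0.85 with limma-voom and sample weights, and Hibch at 0.0046 with total counts as the scale. Leaving out each mouse in turn, the same differences took both signs for Hibch from -0.074 to 0.00060, Bcat1 from -1.32 to 0.093 and Mlxipl from -0.35 to 0.029. Fitted values of Bcat1 rest on at most 3 counts in a mouse. The cause of these changes was not tested; none of the values had an adjusted p under 0.1.

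Counts of all genes past the adjusted p moved more. For treated against untreated *db/db*, *db/db* against *db/m* and treated against *db/m* mice they were 0, 261 and 204 with all mice in edgeR, 15, 727 and 854 with DESeq2, 899, 439 and 4884 with limma-voom and sample weights, 0, 116 and 1486 with only the groups compared, and 0, 323 and 368 with no filter. Leaving out each mouse in turn gave 0 to 419 (419 without *db/db* mouse 3), 85 to 304 (85, 152 and 144 without *db/m* mouse 1, 2 and 3, 125 without *db/db* mouse 2) and 14 to 290 (37, 74 and 56 without *db/m* mouse 1, 2 and 3, 14 and 41 without *db/db*-dapa mouse 2 and 3). With total counts as the scale, the median of all genes, comparing *db/db* with *db/m* mice, moved from 0.020 to 0.13 and the calls from 124 higher and 137 lower to 233 higher and 114 lower; the median of the 10 genes was then -0.035, below that of all genes as before. Mean levels moved by more than 1 SD for Mccc1 and Mccc2 in *db/m* mice with total counts (180.2 and 81.8 CPM) and for Bckdha in *db/db*-dapa mice with the upper quartile (369.7 CPM).

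The replicate numbers of the labels were also fitted as a replicate block. The correlations of deviations from the group means between same-numbered mice were of mixed sign, 0.40, -0.16 and 0.56 between treated and untreated *db/db*, -0.13, -0.24 and -0.32 between *db/db* and *db/m*, and -0.10, 0.22 and -0.17 between treated and *db/m* mice, so the numbers were not taken as pairs. With the block, 0 of the 10 genes passed in each comparison, their medians were 0.17, -0.16 and -0.14, and 0, 222 and 187 genes passed in all. Slc43a2 then had an adjusted p of 0.116 between treated and *db/m* mice.

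With 3 mice per group, the standard errors of the log2 fold changes of the 10 genes were between 0.15 and 0.33, which limits what could be detected, and the exact permutation test cannot give a p under 0.1.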
